A study of Homo sapiens with 6 samples.

Results

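Collagens are the main structural proteins of the extracellular matrix, and the human genome encodes them in a large family whose symbols have the form COL, a type number, the letter A and a chain number. The collagen genes described here are the rows of the deposited count table whose gene name has that form and nothing else. The rule found 41 rows among the 33542 genes of the table, and used no measured value. Of these, 22 had enough counts to be tested and 19 did not. COL19A1, COL26A1 and COL6A5 were not analysed here.

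The cells were T24, an established human bladder carcinoma line grown in RPMI medium with fetal bovine serum. Cells of 3 libraries had received a small interfering RNA that targets TRAIP (siTRAIP), and cells of 3 libraries the control small interfering RNA (siNC), both by Lipofectamine transfection. TRAIP, a ubiquitin ligase of the RING class, works on the replication machinery at forks, and the series asks what lies downstream of it in bladder cancer. Nothing in the labels says whether the replicates came from separate cultures, so p-values measure the spread between these libraries, which may be technical, and the time after transfection is not given in the sources used here. Summed gene counts were between 39111793 and 70439496 per siTRAIP library, and between 54818483 and 58066330 per siNC library. TRAIP stood at 13.0 ± 1.61 CPM in siTRAIP cells and 27.8 ± 1.04 CPM in siNC cells (SD, n = 3 each). The edgeR log2 fold change was thus -1.11, with an SE of 0.07 and an adjusted p of 6.74e-10.

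CPM values are counts relative to the TMM-scaled library size, and compare a gene between groups. RPKM, as deposited by the authors, also divides by gene length and is used wherever levels of different genes are set side by side. A gene was called changed at an adjusted p under 0.05 in edgeR's quasi-likelihood test, fitted on all 18685 genes that passed the filter on low counts and adjusted over all of them by Benjamini-Hochberg. In that fit, which serves as the background here, 12.8% of tested genes were called, 7.47% as rises and 5.34% as falls, and the CPM of the groups did not overlap for 29.1%. Among the tested genes with a mean of at least 5 CPM, 20.2% were called.

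The siTRAIP replicate 3 library stood apart in the sparse collagen genes. It held 21.7% of all counts of the series, yet 52.4% of the COL1A1 counts and 75.0% of the COL3A1 counts. Results that rest on it are given with and without it.

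Every collagen is a helix wound from alpha chains with a repeating glycine, and the types differ in what the helix then builds. Fibril-forming collagens make the striated fibres of connective tissue, and FACIT collagens decorate those fibres. Type IV collagens form the network of basement membranes, type VI forms beaded filaments, and type VII forms the anchoring fibrils that tie epithelium to the tissue beneath. Transmembrane collagens sit in the plasma membrane, and type XVII is part of the hemidesmosome of epithelial cells. In the bladder, the urothelium rests on a basement membrane, while most fibrillar collagen is made by the mesenchymal cells below it.

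T24 cells expressed a narrow set of collagens. Summed over the 41 genes, collagen stood at 204.1 ± 2.75 RPKM in siTRAIP cells and 210.3 ± 5.30 RPKM in siNC cells (SD, n = 3 each), and the ranges of the groups overlapped. With TMM-scaled CPM the sum was 1701 ± 11.05 in siTRAIP cells and 1685 ± 26.9 in siNC cells, so the direction of this small difference depends on the scaling. The 4 highest genes held 54.5% of the summed RPKM in siTRAIP cells and 55.9% in siNC cells, and the 12 highest held 97.6% in both groups.

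COL4A2, a chain of the ubiquitous basement membrane network, had the highest level per length, at 33.7 ± 0.81 RPKM in siTRAIP cells and 34.8 ± 0.77 RPKM in siNC cells. COL6A1 and COL5A2 followed, both at a mean of 28.1 RPKM over the 6 libraries, and their order differed between the groups. COL6A1, a chain of the type VI beaded filament, stood at 26.6 ± 0.41 RPKM in siTRAIP cells and 29.7 ± 1.11 RPKM in siNC cells. COL5A2, a minor chain of fibrils that limits their diameter, stood at 28.5 ± 0.72 RPKM in siTRAIP cells and 27.7 ± 0.61 RPKM in siNC cells. Below them came COL7A1 at 23.9, COL6A2 at 22.4, COL12A1 at 18.2, COL13A1 at 13.6 and COL4A1 at 13.2 RPKM over all libraries. A gap then separated these 8 genes from COL27A1 at 5.78, COL18A1 at 5.76, COL8A1 at 5.46 and COL17A1 at 3.36 RPKM, and the first 3 of these 4 overlapped in level across the libraries. COL4A5 stood at 1.92 RPKM, and the other 28 genes were below 1 RPKM.

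**Figure D1:**
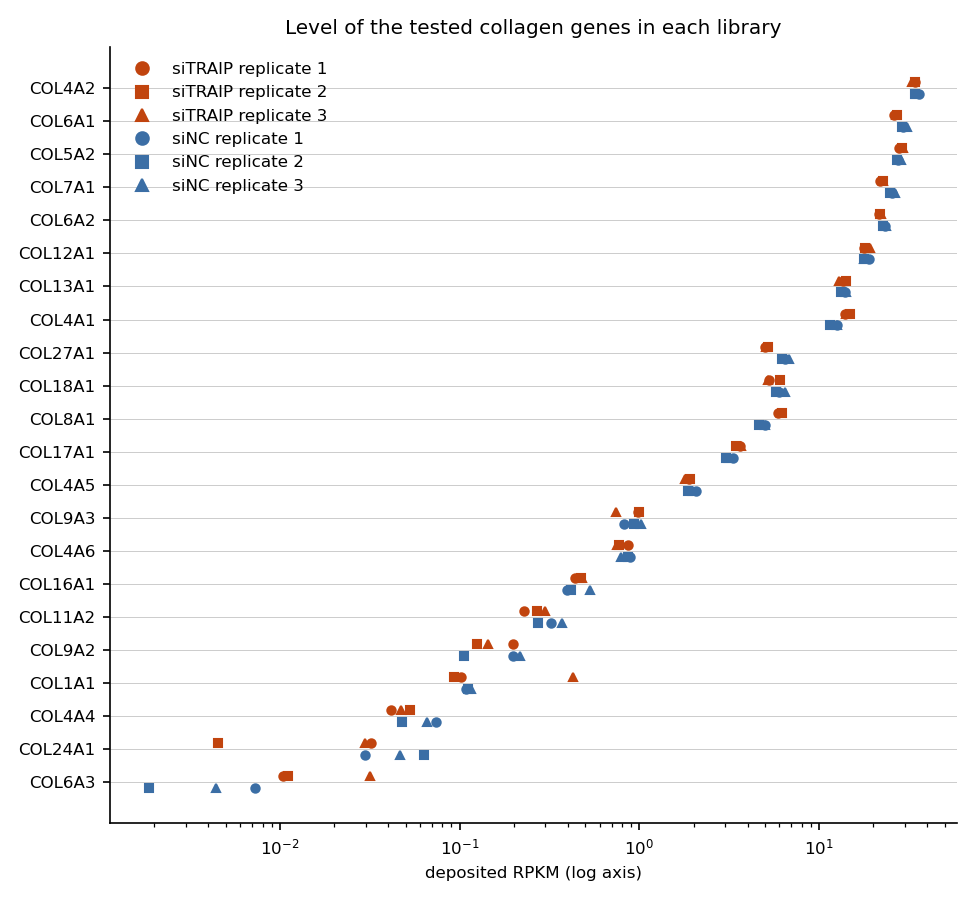
Deposited RPKM (log axis) of the 22 tested collagen genes in each library, siTRAIP in orange above siNC in blue, with 1 symbol per replicate, genes ordered by mean RPKM. The 8 highest genes lie between 11.5 and 35.7 RPKM in every library, and COL1A1 has 1 siTRAIP library at 0.425 RPKM while its other 5 lie between 0.0928 and 0.116 RPKM.

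By type, most of the collagen RNA was of beaded filament, anchoring and basement membrane chains. Basement membrane collagens summed to 50.7 ± 1.17 RPKM in siTRAIP cells and 49.9 ± 1.37 RPKM in siNC cells. The beaded filament and anchoring collagens summed to 70.7 ± 0.97 RPKM in siTRAIP cells and 78.3 ± 2.32 RPKM in siNC cells, without overlap between the groups. RPKM is not TMM-scaled, which widens this gap, as the TMM factors were 0.971 to 0.987 in siTRAIP libraries and 1.01 to 1.03 in siNC libraries. Of the 11 fibril-forming genes, COL5A2 and COL27A1 alone exceeded 1 RPKM. COL5A1, whose chain pairs with COL5A2 in the common type V trimer, had no more than 3 counts in any library. COL1A1 and COL1A2, the chains of type I collagen, were at mean levels of 0.207 and 0.0105 RPKM in siTRAIP cells and 0.112 and 0.00750 RPKM in siNC cells. Without siTRAIP replicate 3 the siTRAIP means were 0.0972 and 0.00424 RPKM, below those of siNC cells.

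COL4A1 and COL4A2, the pair of chains that wind together in the ubiquitous type IV trimer, are neighbours on chromosome 13 and are transcribed away from each other. In the deposited table COL4A1 spans 13:110148963-110307149 on the minus strand and COL4A2 spans 13:110305812-110513027 on the plus strand (GRCh38). Their RefSeq starts (GRCh38.p14) lie 127 bases apart. The deposited spans overlap, as that of COL4A2 begins inside that of COL4A1, before the stretch between the RefSeq starts. The stretch between the RefSeq starts is shown because the pair shares it while the genes' responses to siTRAIP differed. Capitals mark a CCAAT box and a GC box (GGGCGG) on the plus strand, chr13:110307157-110307284, read 5′ to 3′ from the COL4A1 start to the COL4A2 start.
COL4A1-COL4A2 interval: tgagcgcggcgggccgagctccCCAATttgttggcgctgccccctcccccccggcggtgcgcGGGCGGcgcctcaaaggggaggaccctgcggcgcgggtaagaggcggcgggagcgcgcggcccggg
CCAAT, searched on both strands, is present in 34.6% of 35116 RefSeq promoter windows of 300 bases, GGGCGG in 45.0% and TATAAA in 11.5%. The letters TATAAA are in neither the COL4A1 nor the COL4A2 window. The other type IV pairs are arranged alike, with 419 bases between the starts of COL4A4 and COL4A3 and 380 or 1416 bases, for the 2 RefSeq starts of COL4A6, between those of COL4A6 and COL4A5.

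Of the 22 tested collagen genes, 4 rose (COL8A1, COL4A1, COL17A1 and COL6A3), 2 fell (COL27A1 and COL7A1) and 16 were not called. The 6 calls among 22 genes stand against 12.8% of all tested genes, and COL6A3 among them could pass the filter only by differing. Of the 14 with a mean of at least 5 CPM, 5 were called, against 20.2% of all such genes. The groups did not overlap for 9 of the 22, against 29.1% of all tested genes. The median log2 fold change of the tested collagen genes was -0.003, against -0.002 for all tested genes, and 11 lay above 0 and 11 below. Without siNC replicate 2 the 6 calls became 3. Each of the 5 called genes above 5 CPM changed by less than 1.5-fold. The calls were spread over 5 of the 7 structural classes, and in none of those with more than 1 tested gene did every tested gene change. In bulk RNA, fewer cells of a type and less RNA per cell cannot be told apart.

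**Figure D2:**
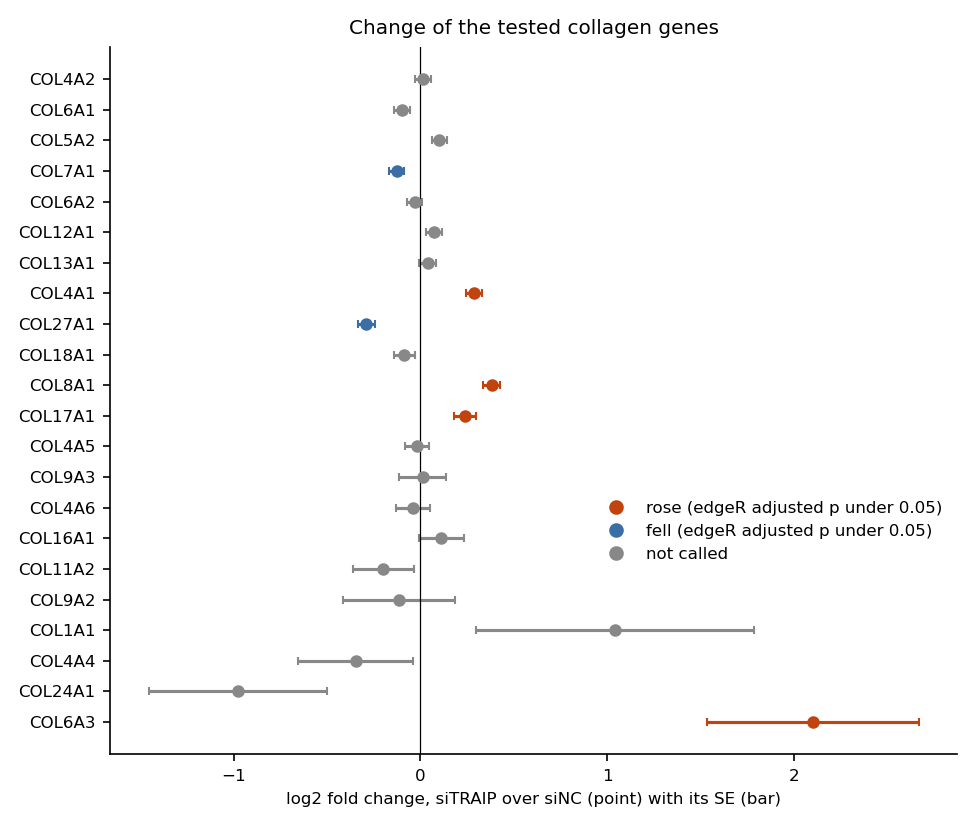
Log2 fold change of the 22 tested collagen genes, siTRAIP over siNC, with its standard error as a bar, genes ordered by mean RPKM and coloured by the edgeR call. The 4 rises and 2 falls lie on both sides of 0, and the bars widen towards the sparse genes at the bottom, where COL6A3 is at 2.10 and COL1A1 at 1.04.

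Among the basement membrane collagens, COL4A1 rose and COL4A2 did not pass the test. COL4A1 stood at 117.7, 122.8 and 117.7 CPM in the siTRAIP libraries, against 100.5, 93.4 and 99.7 CPM in the siNC libraries. All 3 siTRAIP libraries lay above all 3 siNC libraries, at a fold of 1.22 (log2 0.29, SE 0.04, edgeR adjusted p = 7.29e-05). Its partner COL4A2 stood at 305.7, 301.7 and 291.3 CPM in the siTRAIP libraries, against 303.3, 294.9 and 291.6 CPM in the siNC libraries. These values interleave, and the log2 fold change was 0.01 (SE 0.04, adjusted p = 0.883). COL4A5 and COL4A6, the X-linked chains of the other epithelial type IV network, had log2 fold changes of -0.02 (SE 0.07, adjusted p = 0.912) and -0.04 (SE 0.09, adjusted p = 0.844). COL4A4, of the network best known from the kidney glomerulus, had 16, 24 and 33 counts in siTRAIP libraries and 41, 26 and 38 counts in siNC libraries, with a log2 fold change of -0.35 (SE 0.31, adjusted p = 0.547). COL4A3, with 4 to 8 counts in every library, was too sparse to test.

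The ratio of partner chains shows the COL4A1 change without any scaling between libraries. The RPKM of COL4A2 over that of COL4A1 was 2.44, 2.31 and 2.33 in the siTRAIP libraries, against 2.84, 2.97 and 2.75 in the siNC libraries. The groups did not overlap, with means of 2.36 ± 0.07 in siTRAIP cells and 2.85 ± 0.11 in siNC cells (SD, n = 3 each). The RPKM ratio of COL4A5 to COL4A6 was 2.36 ± 0.14 in siTRAIP cells and 2.33 ± 0.16 in siNC cells, and the libraries interleaved. The ratio of COL6A2 to COL6A1 was 0.827, 0.807 and 0.822 in the siTRAIP libraries, against 0.794, 0.787 and 0.759 in the siNC libraries. No test was made of these ratios, and 3 libraries against 3 cannot give an exact permutation p below 0.10.

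**Figure D3:**
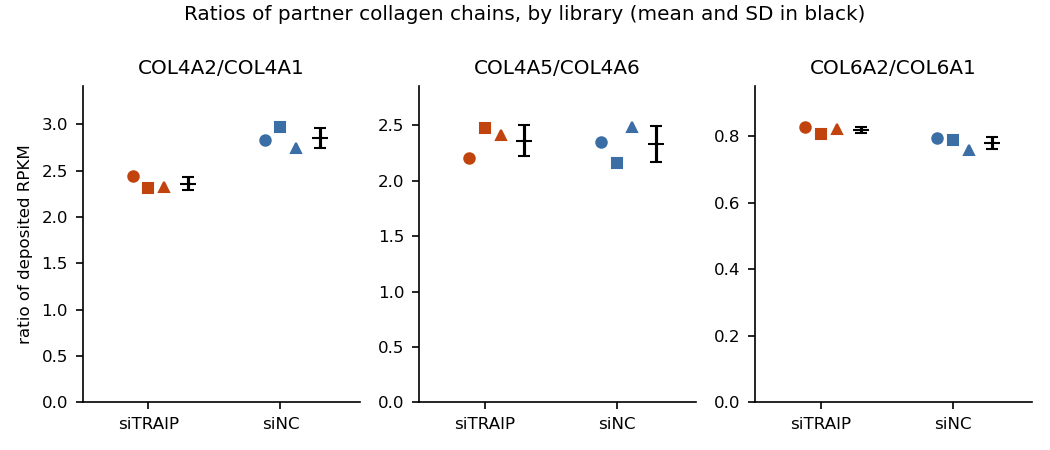
Ratio of deposited RPKM between partner chains in each library, siTRAIP left of siNC, with mean and SD (n = 3) in black and axes from 0. COL4A2 over COL4A1 is 2.31 to 2.44 in the siTRAIP libraries and 2.75 to 2.97 in the siNC libraries, while COL4A5 over COL4A6 overlaps between the groups.

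COL8A1 had the largest rise among the collagens above 5 CPM. It encodes a short-chain, network-forming collagen of vessel walls and of the membrane under the corneal endothelium, and lies at 3:99638475-99799226 on the plus strand. Its levels were 56.8, 59.1 and 59.0 CPM in the siTRAIP libraries, against 45.6, 43.2 and 45.5 CPM in the siNC libraries. The groups were far apart relative to their spread, with a fold of 1.30 (log2 0.38, SE 0.05, edgeR adjusted p = 4.07e-06). Its partner chain COL8A2 had 2 counts in 1 siNC library and 0 in the other 5 libraries. COL10A1, the short-chain collagen of growth plate cartilage, and COL28A1 were also too sparse to test, with at most 2 and 12 counts in a library.

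COL17A1, the transmembrane collagen of the hemidesmosome (also known as BP180), rose. It stood at 24.2, 22.6 and 24.4 CPM in the siTRAIP libraries, against 21.1, 19.4 and 19.9 CPM in the siNC libraries. The nearest libraries of the groups were 22.6 and 21.1 CPM, and the fold was 1.18 (log2 0.24, SE 0.06, edgeR adjusted p = 0.0102). The call was lost without siNC replicate 2, at an adjusted p of 0.0719, and with limma on log2(RPKM + pseudocount), at 0.119 and 0.117. COL13A1, a transmembrane collagen of cell-matrix and neuromuscular junctions, stood at 80.8, 81.8 and 75.6 CPM in the siTRAIP libraries, against 77.9, 74.9 and 79.1 CPM in the siNC libraries. Its groups overlapped, with a log2 fold change of 0.04 (SE 0.05, adjusted p = 0.671). COL23A1 and COL25A1 were too sparse to test.

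COL7A1, which builds the anchoring fibrils, fell by the smallest called amount. It stood at 250.2, 254.9 and 256.2 CPM in the siTRAIP libraries, against 275.1, 271.0 and 284.5 CPM in the siNC libraries. The groups did not overlap, and the fold was 0.917 (log2 -0.13, SE 0.04, edgeR adjusted p = 0.0429). This call is close to the threshold: it held in 7 of 14 alternatives, and leaving out any library except siTRAIP replicate 3 ended it, at adjusted p from 0.0762 to 0.159.

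Classical type VI collagen is built from COL6A1, COL6A2 and COL6A3, of which T24 cells expressed the first pair above 1 RPKM. COL6A1 stood at 143.6, 145.6 and 145.6 CPM in the siTRAIP libraries, against 152.8, 152.4 and 160.8 CPM in the siNC libraries. All siTRAIP libraries lay below all siNC libraries, but the difference of -0.10 on the log2 scale (SE 0.04) missed the threshold (edgeR adjusted p = 0.128). COL6A2 stood at 119.7, 118.5 and 120.6 CPM in the siTRAIP libraries, against 122.3, 121.0 and 123.0 CPM in the siNC libraries, with a log2 fold change of -0.03 (SE 0.04, adjusted p = 0.723).

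COL6A3, the chain that limits type VI assembly in many cells, was barely detected. It had 8, 10 and 44 counts in the siTRAIP libraries, against 8, 2 and 5 counts in the siNC libraries. In CPM these are 0.211, 0.220 and 0.638, against 0.140, 0.0361 and 0.0838, so the groups did not overlap, although 57.1% of the counts were in siTRAIP replicate 3. By edgeR it was higher by 2.10 on the log2 scale (SE 0.57, adjusted p = 0.0150), and by 1.29 without siTRAIP replicate 3 (adjusted p = 0.257). The call was also lost without siNC replicate 2 or 3 (adjusted p = 0.0907 and 0.0693). The gene passed the filter of 0.18 CPM in 3 libraries only through the siTRAIP group, so it had to differ, and its call is no support for a rise. Among the collagens it was the tested gene with the fewest counts, 77 in all, while COL3A1 with 40 was the untested collagen with the most.

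COL27A1, a fibril-forming collagen known from cartilage, had the clearest fall. It lies at 9:114155560-114312511 on the plus strand. Its levels were 71.6, 73.6 and 72.6 CPM in the siTRAIP libraries, against 87.6, 85.7 and 92.9 CPM in the siNC libraries. No siTRAIP library came near the siNC range, and the fold was 0.819 (log2 -0.29, SE 0.04, edgeR adjusted p = 7.97e-05). COL5A2 stood at 204.3, 208.6 and 212.6 CPM in the siTRAIP libraries, against 192.7, 192.6 and 197.6 CPM in the siNC libraries. The groups were separate there too, but the difference of 0.10 on the log2 scale (SE 0.04) missed the threshold (adjusted p = 0.109). COL11A2 had a log2 fold change of -0.20 (SE 0.16, adjusted p = 0.509) and COL24A1, with 2 to 33 counts per library, of -0.98 (SE 0.48, adjusted p = 0.209).

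**Figure D4:**
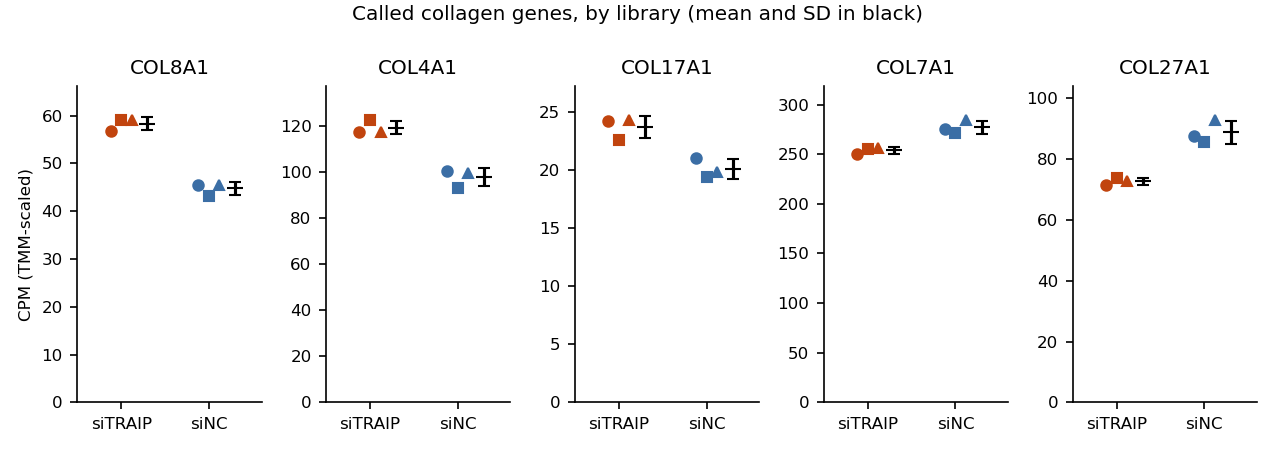
TMM-scaled CPM of the 5 called collagen genes with a mean of at least 5 CPM, in each library, siTRAIP left of siNC, circles for replicate 1, squares for replicate 2 and triangles for replicate 3, with mean and SD (n = 3) in black and axes from 0. The groups do not overlap in any panel, and the folds run between 0.819 for COL27A1 and 1.30 for COL8A1.

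None of the 4 tested FACIT collagens was called. COL12A1, which binds type I fibrils in tendon and stroma, stood at 228.5, 228.0 and 244.9 CPM in the siTRAIP libraries, against 230.0, 220.2 and 216.1 CPM in the siNC libraries. The groups overlapped, and the difference was 0.07 on the log2 scale (SE 0.04, edgeR adjusted p = 0.313). COL9A3, COL9A2 and COL16A1 were at 0.914, 0.164 and 0.455 RPKM over all libraries, with adjusted p of 0.973, 0.871 and 0.639. COL18A1, the multiplexin whose tail is released as endostatin, stood at 45.9, 52.3 and 44.9 CPM in the siTRAIP libraries, against 49.6, 48.3 and 53.7 CPM in the siNC libraries. Its log2 fold change was -0.09 (SE 0.06, adjusted p = 0.401), and 16.4% of its exonic bases are shared with SLC19A1 on the opposite strand, so its counts are uncertain.

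COL1A1, the main chain of type I collagen, was tested but rested on 1 library. It had 39, 42 and 294 counts in the siTRAIP libraries, against 60, 60 and 66 counts in the siNC libraries. In CPM the siTRAIP libraries were at 1.03, 0.923 and 4.26, and the siNC libraries at 1.05, 1.08 and 1.11. Replicate 3 was thus high and the other siTRAIP libraries were at or below the siNC level. The fitted difference was 1.04 on the log2 scale (SE 0.74, edgeR adjusted p = 0.499), and -0.15 without siTRAIP replicate 3 (adjusted p = 0.787).

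The 19 genes too sparse to pass the count filter had between 2 and 40 counts each over all 6 libraries. COL2A1, the cartilage fibril chain, had 0, 0 and 33 counts in the siTRAIP libraries and 0 in each siNC library. When the count filter was dropped it was the only 1 of these 19 genes to be called (edgeR adjusted p = 0.000237), on the counts of that 1 library. COL3A1, a chain of loose connective tissue, had 0, 0 and 30 counts in the siTRAIP libraries, against 0, 6 and 4 in the siNC libraries. COL23A1 had 0, 0 and 15 counts in the siTRAIP libraries and 0 in each siNC library. COL1A2 had 2, 2 and 18 counts in the siTRAIP libraries against 6, 6 and 2 in the siNC libraries, and COL11A1 had 4, 0 and 18 counts in the siTRAIP libraries against 2, 6 and 4 in the siNC libraries. In these 5 genes siTRAIP replicate 3 was the highest library, and siTRAIP replicates 1 and 2 had no more than 4 counts each.

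The rest of the sparse genes were COL5A3, COL21A1, COL10A1, COL25A1, COL6A6, COL5A1, COL20A1, COL22A1, COL15A1, COL9A1 and COL14A1, with COL4A3, COL28A1 and COL8A2 given above. None of these 11 had more than 6 counts in any library. A count of 0 allows up to 0.0426 to 0.0767 CPM in the siTRAIP libraries and 0.0517 to 0.0547 CPM in the siNC libraries, taking 3 counts as the limit, which covers counting error only. Of 61 collagen counts between 1 and 10, 91.8% were even, against 70.2% of the counts of all genes in that range and 50.8% of all counts above 1000. Counting each mate of a read pair would give such an excess, so a count of 2 may be 1 fragment. The limits given above for a count of 0 would then be too low.

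Of the 10 untested collagen genes with at least 10 counts in all, 4 had over 50% of them in siTRAIP replicate 3, against 131 of 5621 untested genes at that depth, or 2.33%. The median share of the counts in that library was 48.1% for these collagens and 19.4% for those genes. Markers of fibroblasts, which make most type I and III collagen in tissue, were also counted. Of 8 listed fibroblast markers 6 had a row, 3 of them were tested and none was called, against 12.8% of all tested genes. Their summed level was 17.1 to 18.3 CPM in siTRAIP libraries and 16.8 to 19.3 CPM in siNC libraries, nearly all of it FBLN1. PDGFRA, a defining fibroblast marker, had 0, 0 and 12 counts in the siTRAIP libraries, against 2, 0 and 0 in the siNC libraries. The other listed fibroblast markers did not share this pattern. FBLN1 and TCF21 were at their lowest siTRAIP levels in replicate 3 (16.5 and 0.131 CPM), POSTN had 2 counts in each siTRAIP library, THY1 had 1, 0 and 2, and PDGFRB had 0, 9 and 15 there and 14, 0 and 10 in the siNC libraries. What set this library apart was not tested. Endothelial markers summed to at most 0.263 CPM and leukocyte markers to at most 0.132 CPM in any library, with none tested. The epithelial and urothelial markers summed to 3173 to 3468 CPM in siTRAIP libraries and 3480 to 3539 CPM in siNC libraries. Of the 7 tested, KRT7 alone was called, against 12.8% of all tested genes. KRT7 fell, at 1152 ± 44.2 CPM in siTRAIP cells and 1308 ± 7.30 CPM in siNC cells (SD, n = 3 each, edgeR adjusted p = 0.00375). The keratins KRT8, KRT18 and KRT19 were not called (edgeR adjusted p = 0.294, 0.544 and 0.992). The defining epithelial marker CDH1 was at most 0.101 CPM in any library. It had 0, 0 and 7 counts in the siTRAIP libraries, against 0, 0 and 2 in the siNC libraries, with the most in siTRAIP replicate 3. The other epithelial and urothelial markers were mixed in that library. EPCAM was highest there at 2.09 CPM, as were KRT5 and UPK3A on 5 and 2 counts. KRT7, KRT18 and KRT19 were at their lowest of all libraries there (1105, 490.1 and 18.8 CPM), and KRT8, GATA3 and UPK2 were neither highest nor lowest.

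**Figure D5:**
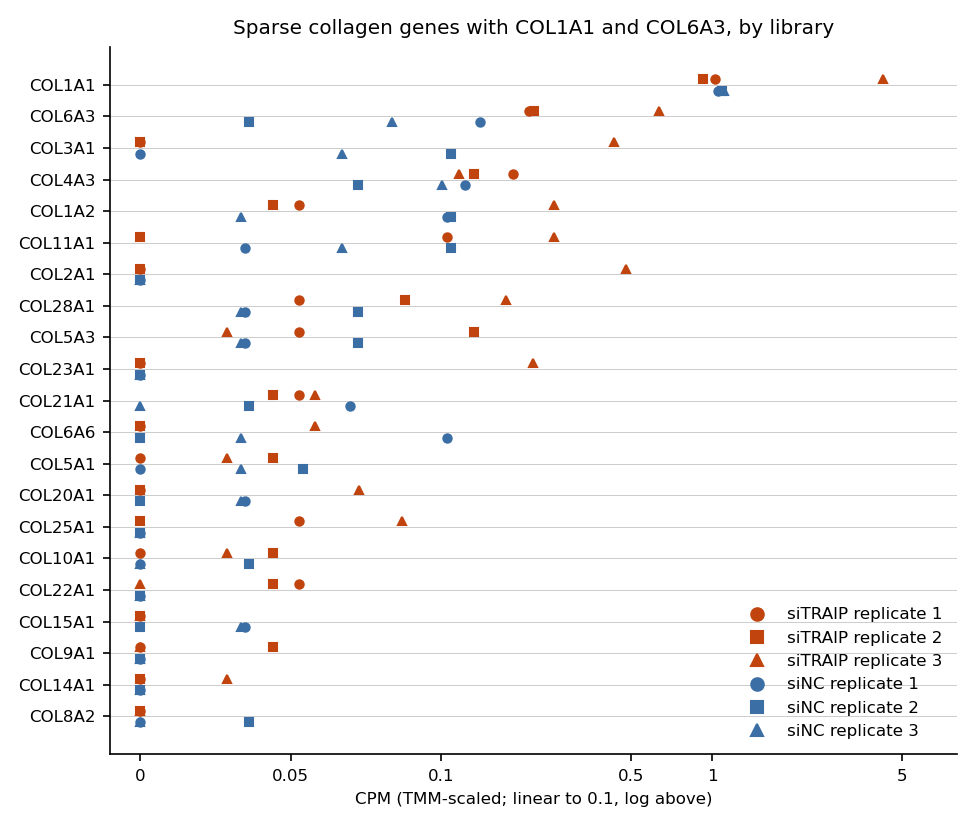
TMM-scaled CPM of the 19 collagen genes too sparse to test, with COL1A1 and COL6A3 above them, in each library (axis linear up to 0.1 CPM and logarithmic above), siTRAIP in orange above siNC in blue. The siTRAIP replicate 3 library, the orange triangle, is the highest library for COL1A1, COL6A3, COL3A1, COL2A1 and COL23A1, with 0.479 CPM of COL2A1 where the other 5 libraries are at 0.

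Collagen mRNAs are known targets of the miR-29 family, small RNAs that pair with a short site in the 3′ UTR. The mature sequences (RefSeq) are shown because the members share their seed, bases 2 to 8, in capitals.
hsa-miR-29a-3p: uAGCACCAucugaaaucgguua
hsa-miR-29b-3p: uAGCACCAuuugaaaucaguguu
hsa-miR-29c-3p: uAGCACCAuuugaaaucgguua
The matching site TGGTGCT was found in the 3′ UTR of 27 of the 41 collagen genes, 65.9%, in 1 GENCODE transcript per gene. Among genes with a mean of at least 5 CPM it was in 9 of 14 collagen genes, 64.3%, against 1306 of 8807 genes searched, 14.8%. The sites of the called genes above 5 CPM are shown in capitals with 8 transcript bases on each side. They are there so that risers and fallers can be compared. The site of COL4A2, which was not called, is added as that of the partner of COL4A1. Other uncalled collagens with a site are left out.
COL4A1: tcacaacaTGGTGCTacttcttc
COL8A1: ttctacaaTGGTGCTaatctcag
COL27A1: gaaatcgcTGGTGCTcacaattg
COL7A1, first site: cctcccctTGGTGCTagaggctt
COL7A1, second site: tgatgacaTGGTGCTgattctgg
COL4A2, not called: ggccatttTGGTGCTtattctta

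COL17A1 has no such site. The site was thus present in genes that rose and in genes that fell. Of the 14 tested collagen genes with a site, 3 rose and 2 fell, where 12.8% of all tested genes were called and COL6A3, 1 of the 3, could pass the filter only by differing. Their values had a median log2 fold change of -0.002, and the 27 genes with a site had a median 3′ UTR of 1316 bases. Of the 8 tested without a site, 1 rose and 0 fell, with a median log2 fold change of -0.04, and the 14 genes without a site had a median 3′ UTR of 1014 bases. A match of letters is a description and not evidence of binding.

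Earlier work on these data found 7-base words that were frequent among the called genes, and they were looked up here in coding sequence and 3′ UTR. As they were chosen on these fold changes, they support nothing about the collagens. TCGGAGA or CGGAGAA was present in 18.8% of genes searched, 33.3% of 1079 called rises among them, and 6 of 14 collagen genes. The 6 were COL4A1 and COL17A1, which rose, COL27A1 and COL7A1, which fell, and COL4A2 and COL6A2, which were not called, each with the word in coding sequence. COL8A1, the collagen with the largest rise above 5 CPM, held neither word. ACAGTCT or CAGTCTA was present in 28.8% of genes searched, 45.9% of 780 called falls among them, and 3 of 14 collagen genes, which were COL6A1, COL6A2 and COL12A1. Neither fallen collagen held it.

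A collagen chain is hydroxylated, folded, exported, trimmed and crosslinked by dedicated enzymes and chaperones. The counts called among them stand against 12.8% of all tested genes. Of 20 genes of modification and folding, 19 were tested, 1 rose and 0 fell, with a median log2 fold change of 0.02. The riser was CRTAP, the partner of prolyl 3-hydroxylase, at 207.4 ± 16.3 CPM in siTRAIP cells and 183.4 ± 6.61 CPM in siNC cells (SD, n = 3 each; log2 fold change 0.18, SE 0.05, edgeR adjusted p = 0.0209), and its call was lost without siTRAIP replicate 3, siNC replicate 1 or siNC replicate 3 (adjusted p = 0.0544, 0.138 and 0.0706). The prolyl 4-hydroxylase subunits P4HA2 and P4HB had log2 fold changes of 0.16 and 0.10 (adjusted p = 0.0806 and 0.150), and the collagen chaperone SERPINH1 had -0.11 (adjusted p = 0.186). Of 19 genes of export, processing and crosslinking, 17 were tested and none was called. The smallest adjusted p there were 0.203 for LOXL2 at -0.10, 0.225 for LOXL3 at 0.22, 0.306 for the coat protein SEC24D at -0.11 and 0.326 for LOX at 0.12, the LOX family being the enzymes that crosslink collagen.

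Receptors held the other pathway calls. Of 10 genes of collagen receptors and uptake in the table, 8 were tested, 2 rose and 0 fell, against 12.8% of all tested genes. The median log2 fold change of those tested was 0.07. ITGB1, the beta chain of all collagen-binding integrins, stood at 1039 ± 61.0 CPM in siTRAIP cells and 910.5 ± 8.91 CPM in siNC cells (SD, n = 3 each; log2 fold change 0.19, SE 0.04, edgeR adjusted p = 0.00478). ADGRG1, an adhesion receptor that binds type III collagen, stood at 4.65 ± 0.42 CPM in siTRAIP cells and 3.46 ± 0.27 CPM in siNC cells (log2 fold change 0.42, SE 0.12, adjusted p = 0.0192), a call that held in 8 of 14 alternatives. It was lost without siTRAIP replicate 1 or 2 (adjusted p = 0.0541 and 0.0983) and without siNC replicate 2 or 3 (0.105 and 0.0651). ITGA2, an alpha chain that pairs with ITGB1, had 0.14 (adjusted p = 0.108), and the collagen uptake receptor MRC2 had 0.08 (adjusted p = 0.490). Of 15 genes of collagen degradation in the table, 11 were tested and none was called, against the same 12.8%. The smallest adjusted p there were 0.318 for PREP at 0.13, 0.351 for cathepsin K (CTSK) at 0.35, 0.363 for PEPD at -0.12 and 0.467 for TIMP2 at 0.06 on the log2 scale.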

How the data were processed

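RNA of T24 cells was sequenced after TRIzol extraction and a stranded mRNA library kit, per the labels' protocols. The sample titles gave groups and replicate numbers. The authors deposited raw counts per gene in whole numbers, and RPKM, which were recomputed from those counts, the gene lengths and the summed counts. Trimmomatic 0.36, featureCounts, Subread 1.5.1 and GRCh38 come from the submitters' processing notes. How reads were counted (strand, pairs) is not stated there, so genes overlapping on opposite strands are uncertain.

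Counts were tested with edgeR 4.0.16 in R 4.3.3: filterByExpr with its defaults (about 0.18 CPM in 3 libraries), TMM, a robust quasi-likelihood fit, 2-sided F-test, Benjamini-Hochberg over 18685 genes. The SE is the log2 fold change divided by the square root of F. Common biological variation was 5.73%. The procedure was checked on simulated counts with the same dispersion for every gene and folds set in well-counted genes only. That check does not cover changes in sparse genes such as COL6A3, or a library that stands apart. Alternatives were DESeq2 1.42.0, limma 3.58.1 on log2(RPKM + 0.1) and log2(RPKM + 1), other filters and scaling, a replicate block and leaving out each library. The main fit did not pair libraries by replicate number.

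Transcript words used GENCODE 29 (GRCh38), and promoters and miRNAs used RefSeq tables. The collagen genes, the gene lists and the words were chosen with earlier results of these data known. Per-library values are given for called collagens and the 10 with the highest mean RPKM. Of each pathway list, called genes and at least the 4 with the smallest adjusted p are named.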

Additional observations from a re-analysis of the deposited data

How the results depend on the processing

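The rises of COL8A1 and COL4A1 and the fall of COL27A1 passed the test in all 14 alternatives, with log2 fold changes of 0.27 to 0.40, 0.21 to 0.30 and -0.34 to -0.26. The 6 collagen calls became 3 to 5 with 1 library left out, the 4 rises 2 to 4, and the 2 falls 1 to 2. The rises were 2 and 2 with limma on log2(RPKM + 0.1) and log2(RPKM + 1), and the falls 1 with robust=FALSE. With limma the median log2 fold change of all tested genes was -0.06 and -0.03, so its rises are counted against a shifted zero. Over all genes, the 2393 calls were 1480 to 2622 with 1 library left out, 1520 and 1519 with limma. The 1396 rises were 878 to 1471, then 461 and 450 with limma, and the 997 falls 602 to 1151. The 3 pathway calls, all rises, were 1 to 5 (rises 1 to 4, falls 0 to 1) with 1 library left out, and 0 and 0 with limma, where ITGB1 had adjusted p of 0.128 and 0.131. CRTAP and ADGRG1 were called in 9 and 8 of 14. The summed collagen level was lower in siTRAIP cells by RPKM, but the ratio was 1.01 by TMM-scaled CPM.

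Signs turned in collagen genes that were never called. COL1A1 was at -0.15 without siTRAIP replicate 3. With limma, COL4A2 was at -0.046 and -0.045, COL13A1 at -0.021 and -0.019, and COL9A3 at -0.032 and -0.015. With 1 library left out, log2 fold changes were -0.0011 to 0.034 for COL4A2, -0.054 to 0.017 for COL4A5, -0.072 to 0.15 for COL9A3, -0.10 to 0.0029 for COL4A6, -0.37 to 0.069 for COL9A2 and -0.15 to 1.39 for COL1A1. The cause of these changes was not tested. COL6A3 also lost its call with limma (adjusted p = 0.422 and 0.592).

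Deviations of libraries with the same replicate number correlated at 0.03, -0.09 and -0.02. None of the siTRAIP libraries was closest to the siNC library of its number, though siTRAIP replicate 1 had 0.0337 with siNC replicate 1 and 0.0347 with siNC replicate 2. Correlations this weak cannot show whether libraries of the same number shared a culture or day. With the replicate block the collagen calls were 5, with falls 1, since COL7A1 had an adjusted p of 0.0846. With no count filter the collagen calls were 7, the 6 calls and COL2A1, whose 33 counts were all in siTRAIP replicate 3. The low counts of the 19 untested genes limit what the depth can show.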

Other observations

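Among 24306 genes with at least 10 counts in all, 135 had over 50% of them in siTRAIP replicate 3, and 6 of these were among the 32 collagen genes at that depth. When only those 135 genes were ranked by the excess of that library's count over the next library, 5 of the first 10 were collagens (COL1A1, COL6A3, COL2A1, COL3A1 and COL23A1). The other 5, named after their values were seen, were the mitochondrial MT-ND6 (157391 counts against 35621 in the next library), the small nuclear RNA gene RN7SK (122 against 26), and CHI3L1, S100A9 and MIR205HG, with 34, 22 and 14 counts there and 0 in every other library. CHI3L1 and S100A9 encode secreted proteins known from cartilage, macrophages and neutrophils. The matrix protease MMP2, likewise named with its values known, had 0, 0 and 10 counts in the siTRAIP libraries, against 0, 0 and 2 in the siNC libraries. The other untested genes of collagen degradation had few counts in that library. MMP13 had 4, 0 and 4 counts in the siTRAIP libraries, and MMP9 and FAP had 0, 0 and 2 each.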
